A study of Caenorhabditis elegans with 24 samples.

Results

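*R04B5.5*, *R04B5.6* and *R119.3* are *C. elegans* genes grouped here as dehydrogenases, 3 of the 21982 genes in the data. They were selected on measured values, since *R04B5.6* and *R119.3* are raised in *daf-2(lf)* muscle cells, so every value that involves *daf-2(lf)* muscle cells is given below as a description, with no test, for all 3 genes. Each was found by its sequence name and has a single transcript in the table, and all 3 passed the filter on low values (at least 1 TPM in at least 3 libraries). TPM, the unit of abundance here, corrects a transcript's reads for its length and scales every library to the same total, so levels can be set side by side between genes.

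Bulk mRNA-seq was performed on cells of young adult animals of 4 genotypes. These were wild-type, the deletion allele *mu86* of *daf-16*, written *daf-16(lf)*, the temperature-sensitive allele *e1370* of *daf-2*, written *daf-2(lf)*, and the double mutant that carries both alleles. All strains, the wild-type included, carry a GFP transgene in body wall muscle. After dissociation and FACS, GFP-positive live cells were collected as muscle cells, and live cells without a GFP gate as all cells. Muscle cells gave 3 libraries each of *daf-2(lf)* and the double mutant and 4 each of the genotypes with functional *daf-2*. All cells gave 3 libraries each of the first pair of genotypes and 2 each of wild-type and *daf-16(lf)*. The *daf-2(+)* animals were grown at the restrictive temperature throughout and the *daf-2(lf)* strains were moved to it only late in development, so the state of *daf-2* and the history of temperature cannot be told apart. Libraries were made with 2 kits, single-end or paired-end, and which library was made with which kit is not given in the sources used here. The methods call the muscle cell replicates independent and do not say so of the all cells, which were taken without the gate from the same kind of preparation, so p-values over all cells may measure technical spread only.

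Many dehydrogenases, though not all, move hydride between a substrate and a nicotinamide cofactor. Different families act on alcohols, sugars, aldehydes or fatty acyl chains. The annotation used here gives these 3 genes no enzyme name or substrate, so no further role is assigned to them. Insulin/IGF-1 signaling (IIS) acts through the receptor DAF-2 and keeps the FOXO transcription factor DAF-16 in the cytosol. When IIS is low, as in *daf-2(lf)*, DAF-16 enters the nucleus and changes the transcription of metabolic and stress genes in many tissues. The *daf-2(lf)* and double mutant samples therefore differ in DAF-16 at low IIS, and wild-type and *daf-16(lf)* samples differ in DAF-16 at high IIS.

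*R04B5.6* (WBGene00011004) lies on chromosome V of WBcel235 (10085164 to 10087363; forward strand) and has 6 exons. *R04B5.5* (WBGene00011003) follows it on the same strand from 10087480 to 10089002, also with 6 exons, and 116 bases separate the pair. *R119.3* (WBGene00020089) lies on the reverse strand of chromosome I from 373571 to 379073, with 5 exons.

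The labels were first set against the data. Of 14 *daf-16* transcripts, 5 were at 0 in all *daf-16(lf)* and double mutant libraries and summed to between 2.58 and 3.89 TPM in wild-type muscle cells, but both libraries labelled wild-type all cells also held 0 TPM of them and go against their label. The first of these libraries had only 9200 genes above 0, against 12464 to 19175 in the others. All 10 body wall muscle markers were detected, and their summed level was 32295 to 104813 TPM in the muscle cell libraries and 4787 to 5700 TPM in the all cells of *daf-2(lf)* and the double mutant. In the libraries labelled wild-type or *daf-16(lf)* all cells it was 50361 to 99383 TPM, within the range of all muscle cell libraries together. The 8 intestine markers summed to 126 to 194 TPM there against 3271 to 5177 TPM in the other all cells. The 4 libraries labelled wild-type or *daf-16(lf)* all cells are called here by their labels, and comparisons with them carry these limits.

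*R04B5.6* was nearly absent in the double mutant and abundant in most of the other groups. In muscle cells it was at 0.354, 2.44 and 0.334 TPM in the 3 double mutant libraries. In *daf-2(lf)* muscle cells it was at 17.2, 23.5 and 47.4 TPM. All *daf-2(lf)* muscle libraries thus lay above all double mutant muscle libraries, with a ratio of the means of 28.2. At high IIS *R04B5.6* was at 24.1, 20.4, 17.9 and 13.7 TPM in wild-type muscle cells and at 21.0, 14.3, 12.599 and 10.5 TPM in *daf-16(lf)* muscle cells. The *daf-2(lf)* libraries overlapped both of these groups, and their mean was 1.54 times that of wild-type and 2.01 times that of *daf-16(lf)*. In muscle cells the *daf-2(lf)* level therefore stood apart from the double mutant and not from either group at high IIS. In all cells *R04B5.6* was at 2.26, 2.72 and 7.22 TPM in *daf-2(lf)* and at 0.217, 0.400 and 0.158 TPM in the double mutant. The libraries labelled all cells held 12.1 and 9.40 TPM in *daf-16(lf)*, and 49.7 and 12.2 TPM in wild-type. The highest of these, 49.7 TPM, came from the library with the fewest genes above 0.

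*R119.3* was lowest in the double mutant, in both cell types. It was at 4.66, 4.69 and 4.36 TPM in double mutant muscle cells and at 5.29, 5.06 and 3.67 TPM in double mutant all cells. In *daf-2(lf)* it was at 59.3, 61.3 and 69.4 TPM in muscle cells and at 41.0, 46.5 and 46.9 TPM in all cells. The lowest *daf-2(lf)* library thus lay far above the highest double mutant library, and the ratio of the means in muscle cells was 13.9. *R119.3* was at 42.4, 31.9, 35.7 and 52.9 TPM in wild-type muscle cells. It was at 40.4, 34.3, 33.5 and 49.3 TPM in *daf-16(lf)* muscle cells. The *daf-2(lf)* muscle libraries lay above both groups, by 1.56 and 1.61 times in the means, with a narrow gap between the highest wild-type library and the lowest *daf-2(lf)* library. The libraries labelled all cells held 35.5 and 34.5 TPM in *daf-16(lf)* and 15.6 and 32.9 TPM in wild-type.

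*R04B5.5*, the neighbour of *R04B5.6*, followed another order and was not low in the double mutant. In *daf-2(lf)* muscle cells it was at 54.6, 40.5 and 51.6 TPM, the highest group. Double mutant muscle cells came next, at 13.8, 23.2 and 29.7 TPM. In muscle cells at high IIS it was at 6.46, 6.71, 9.42 and 4.72 TPM in wild-type and at 9.995, 6.26, 7.75 and 11.1 TPM in *daf-16(lf)*. The *daf-2(lf)* muscle libraries did not overlap any of these groups, with ratios of the means of 7.16 over wild-type, 5.58 over *daf-16(lf)* and 2.20 over the double mutant. In all cells *R04B5.5* was at 11.9, 9.80 and 14.1 TPM in *daf-2(lf)* and at 14.1, 10.4 and 10.3 TPM in the double mutant, and the libraries overlapped. The libraries labelled all cells held 8.45 and 5.77 TPM in *daf-16(lf)* and 0 and 7.70 TPM in wild-type. The value listed at 0 belongs to the same library that gave 49.7 TPM of *R04B5.6*.

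**Figure D1:**
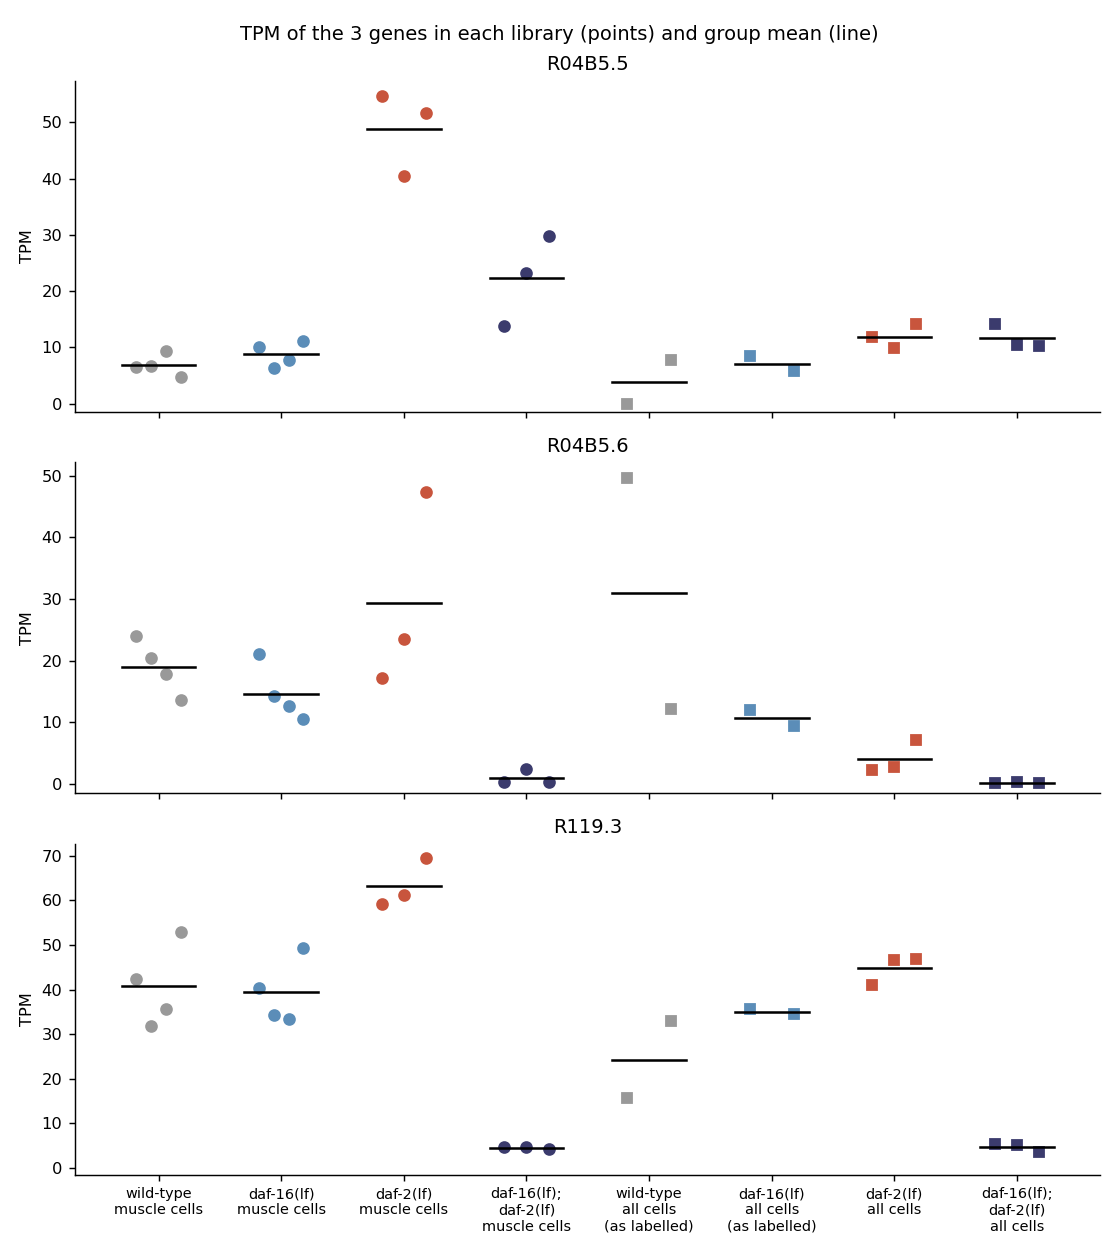
Abundance in TPM (y axis) of *R04B5.5*, *R04B5.6* and *R119.3* in each library (points) of the 8 groups (x axis), with the group mean as a line and circles for muscle cells and squares for all cells. *R04B5.6* and *R119.3* sit lowest in both double mutant groups, and *R04B5.5* sits highest in *daf-2(lf)* muscle cells, between 40.5 and 54.6 TPM.

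By group mean, *R04B5.5* ran from *daf-2(lf)* muscle cells (48.9 ± 7.44 TPM, SD, n = 3) through double mutant muscle cells (22.3 ± 7.99, n = 3) to 6 groups with means between 3.85 and 11.9 TPM. After the highest group, each group overlapped the next in this order. For *R119.3* the order ran from *daf-2(lf)* muscle cells (63.3 ± 5.38 TPM, n = 3) over *daf-2(lf)* all cells (44.8 ± 3.28, n = 3), wild-type muscle cells (40.7 ± 9.20, n = 4) and *daf-16(lf)* muscle cells (39.4 ± 7.27, n = 4) to the double mutant. The 2 double mutant groups came last for *R119.3*, with means of 4.68 ± 0.876 TPM in all cells and 4.57 ± 0.180 TPM in muscle cells (SD, n = 3 each), and they overlapped each other. Both muscle cell groups at high IIS overlapped each other as well as *daf-2(lf)* all cells. For *R04B5.6* the 5 highest groups each overlapped the next, with means from 30.96 TPM down to 10.7 TPM. The group next in order, *daf-2(lf)* all cells, had a mean of 4.07 ± 2.74 TPM (n = 3), and double mutant muscle cells and all cells had 1.04 ± 1.21 and 0.258 ± 0.126 TPM (n = 3 each).

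The same genotypes were compared in all cells. These libraries did not enter the selection of the genes, but they hold muscle cells too, and their deviations correlated with those of same-numbered muscle libraries (mean r 0.351 for the double mutant and 0.296 for *daf-2(lf)*), so the comparison is not independent of the selection and does not separate muscle from other cells. *R119.3* was higher in *daf-2(lf)*, by 3.02 ± 0.26 on the scale of log2(TPM + 1) (SE; 95% interval 2.48 to 3.57; adjusted p = 6.22e-08, limma with Benjamini-Hochberg adjustment over all genes tested), and its means differed 9.58-fold. *R04B5.6* was higher by 1.89 ± 0.48 (0.877 to 2.90; adjusted p = 0.0395), with a ratio of the means of 15.7. The pseudocount of 1 TPM compresses the difference of *R04B5.6*, whose double mutant level was below it, and a pseudocount of 0.1 gave 3.41. *R04B5.5* differed by 0.04 ± 0.50 (-1.002 to 1.07; adjusted p = 1), a wide interval. Of 14717 genes tested, 358 (2.43%) were called in this comparison, and 1.72% were called as higher in *daf-2(lf)*. The call of *R04B5.6* was lost under each scaling alternative (adjusted p = 0.495 with quantile normalization and 0.697 with median-of-ratios scaling) and when any library of the comparison but *daf-2(lf)* replicate 1 was left out (adjusted p = 0.0711 to 0.325). Between these groups none of the 10 body wall muscle markers and 1 of the 8 intestine markers (lower in *daf-2(lf)*) was called. Without *daf-2(lf)* replicate 3, the library with the highest value, the difference was 1.47 (adjusted p = 0.325), while *R119.3* stayed past the threshold in every alternative fit.

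The loss of *daf-2* in animals without DAF-16 was examined next, by comparing the double mutant with *daf-16(lf)*. In muscle cells *R04B5.6* was lower in the double mutant by 3.04 ± 0.45 (difference -3.04, 95% interval -3.99 to -2.10; adjusted p = 2.39e-05) and *R119.3* by 2.84 ± 0.24 (difference -2.84, -3.35 to -2.33; adjusted p = 2.26e-08). The *daf-16(lf)* means were 14.0 and 8.62 times those of the double mutant. The double mutant muscle libraries also form the low side of the contrast with *daf-2(lf)* muscle cells, so these tests are not independent of how *R04B5.6* and *R119.3* were selected. In this comparison 4726 genes (32.1%) were called, 8.62% of all genes as lower in the double mutant. In all cells, as labelled, *R04B5.6* was lower by 3.22 ± 0.54 (difference -3.22, -4.35 to -2.09; adjusted p = 5.63e-05) and *R119.3* by 2.68 ± 0.29 (difference -2.68, -3.29 to -2.07; adjusted p = 3.08e-07). There 56.5% of genes were called, 11.3% as lower, and body wall muscle markers (6 of 10 lower) and intestine markers (8 of 8 higher, median difference 4.73) differed between the same libraries. The part of the cell makeup in these all cells values was not tested. In muscle cells none of the 8 intestine markers was called, and of the body wall muscle markers 3 were higher and 5 lower. The body wall muscle markers summed to 53733 to 104813 TPM in *daf-16(lf)* and 32295 to 37607 TPM in double mutant muscle cells, without overlap. Of the other markers there, 3 of 8 of neurons were higher, 2 of 6 of the germline were higher and 1 lower, and of 4 of pharyngeal muscle *tnc-2*, a troponin C, was lower (difference -3.17, from a mean of 54.7 to 5.35 TPM; named after its values were seen). Their part in the falls of *R04B5.6* and *R119.3* was not tested.

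*R04B5.5* was at 13.8 to 29.7 TPM in double mutant muscle cells and at 6.26 to 11.1 TPM in *daf-16(lf)* muscle cells, without overlap. The difference was 1.22 ± 0.47 (95% interval 0.246 to 2.19) and just missed the threshold (adjusted p = 0.0510). The fit pools the spread of all 8 groups, and *R04B5.5* had an SD of log2(TPM + 1) of 2.21 in the libraries labelled wild-type all cells, where 1 value is 0, against 0.224 to 0.535 in the other groups. Without those 2 libraries the adjusted p was 0.00150 at the same difference. The difference also passed without double mutant replicate 1 (1.51, adjusted p = 0.0254) and without *daf-16(lf)* replicate 4 (1.33, adjusted p = 0.0474). It was smaller under both scaling alternatives, at 0.84 with quantile normalization (adjusted p = 0.146) and 0.71 with median-of-ratios scaling (adjusted p = 0.331). In all cells as labelled the difference was 0.64 ± 0.56 (-0.519 to 1.80; adjusted p = 0.328), and it turned to -0.18 and -0.35 under these scalings. Over all genes the median difference between the double mutant and *daf-16(lf)* was 0.33 in muscle cells and 0.86 in all cells, so *R04B5.5* stood near the median of all genes in all cells. *R04B5.6* and *R119.3* ranked 373 and 538 from the lowest difference among the 14717 genes in all cells.

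At high IIS none of the 3 genes passed the test between wild-type and *daf-16(lf)*. In muscle cells, wild-type minus *daf-16(lf)* was -0.32 ± 0.43 for *R04B5.5* (SE; 95% interval -1.22 to 0.575), 0.38 ± 0.42 for *R04B5.6* (-0.498 to 1.25) and 0.04 ± 0.23 for *R119.3* (-0.434 to 0.510), with an adjusted p of 1 for each. The interval of *R119.3* excludes the size that *daf-2(lf)* and the double mutant differed by in all cells. In this comparison limma called 0 genes (0%) of all those tested, with 105 genes at an unadjusted p under 0.05 and a smallest adjusted p of 0.123. The 4 wild-type and 4 *daf-16(lf)* libraries overlapped for each of the 3 genes. Same-numbered libraries of these groups deviated together, and within the 4 pairs *R04B5.6* was higher in wild-type in all 4, by 0.19 to 0.49 (mean 0.38; exact two-sided sign-flip permutation test, p = 0.125, the smallest that 4 pairs allow). *R119.3* was higher in 3 of 4 pairs (mean 0.04; exact sign-flip p = 0.625) and *R04B5.5* in 2 of 4 (mean -0.32; exact sign-flip p = 0.5). With the replicate block the adjusted p was 1 for each gene.

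**Figure D2:**
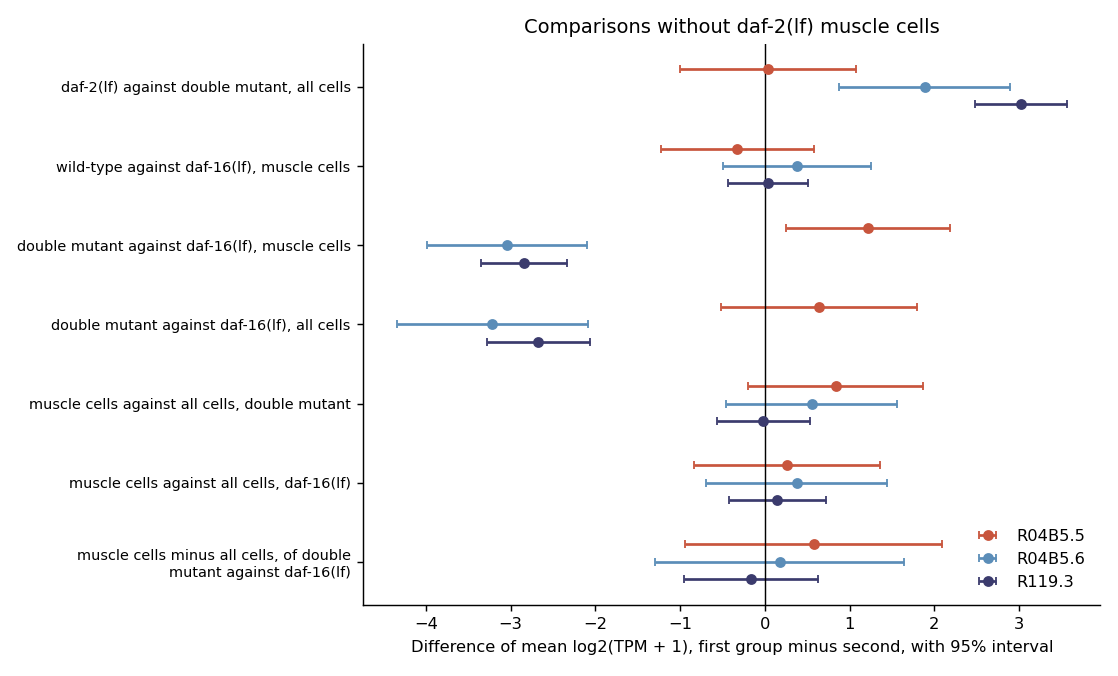
Differences of mean log2(TPM + 1) (x axis, with 95% intervals from limma) of the 3 genes in the comparisons that leave out *daf-2(lf)* muscle cells (y axis; a difference is the group named first minus the second). *R119.3* and *R04B5.6* differ by 1.89 to 3.22 in size wherever the double mutant is compared with another genotype. These comparisons are not independent of how these genes were selected. Their intervals span 0 between wild-type and *daf-16(lf)* and between cell types. Under both scaling alternatives *R04B5.6* lost its call between *daf-2(lf)* and double mutant all cells. *R119.3* became higher in double mutant muscle cells than in all cells under them.

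Muscle cells and all cells were compared within a genotype to ask where the transcripts are found. In *daf-2(lf)*, as a description, *R04B5.6* was 7.22 times and *R04B5.5* 4.10 times as high in muscle cells as in all cells, and *R119.3* 1.41 times, each without overlap. The summed body wall muscle markers were at 35694 to 44711 TPM in these muscle cells and 5081 to 5700 TPM in these all cells. In the double mutant, muscle cells minus all cells was 0.83 ± 0.50 for *R04B5.5* (adjusted p = 0.142), 0.55 ± 0.48 for *R04B5.6* (adjusted p = 0.318) and -0.02 ± 0.26 for *R119.3* (adjusted p = 0.962). In that comparison 67.7% of genes were called and the median of all genes was -1.09, so all 3 genes lay above it. With quantile normalization and median-of-ratios scaling, which move that median to 0.03 and -0.17, *R04B5.5* was past the threshold (2.07 and 2.12) and *R119.3* turned to a higher level in muscle cells (1.36 and 1.102, adjusted p = 0.00457 and 0.0425). In *daf-16(lf)* the differences were 0.26 ± 0.53, 0.38 ± 0.51 and 0.15 ± 0.28 for *R04B5.5*, *R04B5.6* and *R119.3* (adjusted p = 0.832, 0.716 and 0.808; 21.1% of genes called). The summed body wall muscle markers of these libraries were at a similar level, with 2 of 10 called as higher in muscle cells. There 3 of 4 pharyngeal muscle markers and 2 of 6 hypodermis markers were lower in muscle cells. In bulk samples, fewer cells of a type and less RNA per cell cannot be told apart.

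Whether the effect of *daf-2* loss without DAF-16 differs between cell types was tested as a difference of differences, in a contrast added after the data were seen. It was 0.58 ± 0.73 for *R04B5.5* (adjusted p = 0.660), 0.17 ± 0.71 for *R04B5.6* (adjusted p = 0.904) and -0.16 ± 0.38 for *R119.3* (95% interval -0.959 to 0.629; adjusted p = 0.820). Over all genes 18.3% were called in this contrast. It rests on the libraries labelled *daf-16(lf)* all cells, whose markers are given above.

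The neighbours *R04B5.5* and *R04B5.6* diverged most in the double mutant. The ratio of *R04B5.5* to *R04B5.6* is taken within a library and so does not change when a library is rescaled. It was 0.268 to 0.526 in wild-type muscle cells and 0.438 to 1.05 in *daf-16(lf)* muscle cells. In muscle cells at low IIS it was 1.09 to 3.17 in *daf-2(lf)* and 9.52 to 88.998 in the double mutant, and these groups did not overlap. In all cells the ratio was 1.95 to 5.25 in *daf-2(lf)* and 25.9 to 65.2 in the double mutant. The mean log2 ratio was 5.73 higher in double mutant than in *daf-16(lf)* muscle cells (exact two-sided permutation test, p = 0.0571) and 3.85 higher in double mutant than in *daf-2(lf)* all cells (exact permutation, p = 0.1), and each p is the smallest that its group sizes allow, so neither could pass 0.05. The double mutant muscle libraries are the low side of the contrast *R04B5.6* was selected on. The first of these differences is therefore not independent of the selection. The second is not independent either, since the all cells libraries hold muscle cells and deviated together with same-numbered muscle libraries. The mean log2 ratio was 0.77 lower in wild-type than in *daf-16(lf)* muscle cells (difference -0.77, exact permutation, p = 0.0857), with overlap. It was lower in all 4 same-numbered pairs (exact sign-flip p = 0.125). The exact tests were chosen after the data were seen. Reads that fit both transcripts would be divided between them by the quantification, and how alike the pair is in sequence was not examined.

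**Figure D3:**
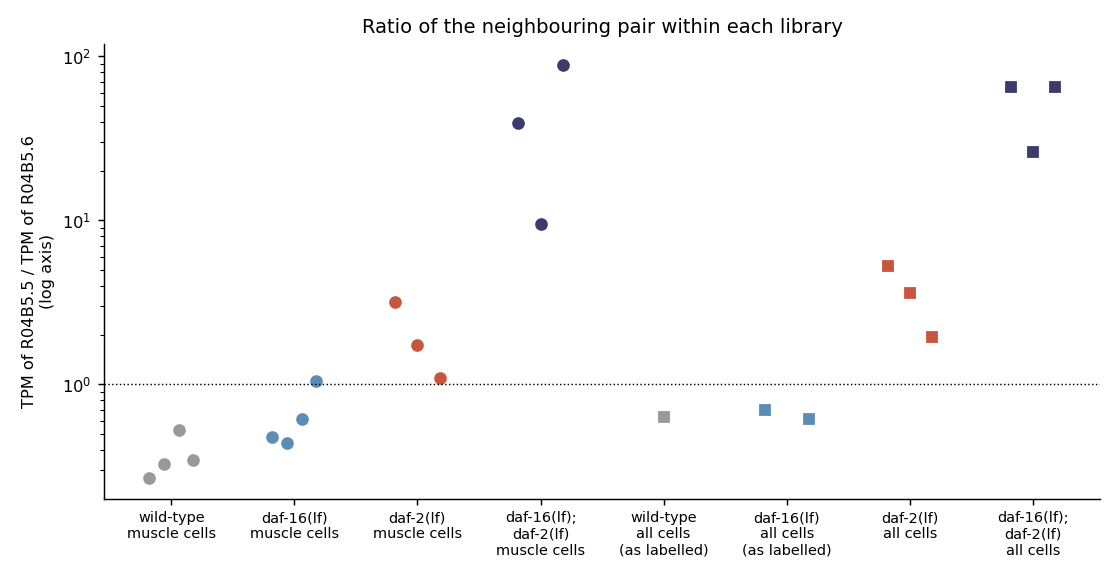
Ratio of the TPM of *R04B5.5* to that of *R04B5.6* within each library (y axis, log scale) in the 8 groups (x axis), with the library at 0 for *R04B5.5* left out. The ratio lies between 0.268 and 1.05 in the 8 muscle cell libraries at high IIS and between 9.52 and 88.998 in the 6 double mutant libraries.

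The genes around the pair on chromosome V were set beside it. Besides the pair, 10 annotated genes lie within 10 kb, of which 5 were tested. None of them passed between the low IIS genotypes in either cell type, where 2.43% of all genes were called in all cells and 0.612% in muscle cells. At such shares, 0 of 5 says little about these neighbours. In muscle cells *nhr-205*, *R04B5.11* and *ugt-47* also had means below 1 TPM in both low IIS genotypes. Between the double mutant and *daf-16(lf)* none of the 5 was called in muscle cells, where 32.1% of all genes were. In all cells as labelled, *nhr-12* and *nhr-205*, which encode nuclear hormone receptors, were lower (differences -1.69 and -1.39) and *ugt-47*, a UDP-glucuronosyltransferase gene, was higher (2.28). Of all genes 11.3% were lower and 45.2% higher in that comparison. The nearest gene before the pair, *nhr-12*, starts on the other strand 1114 bases from *R04B5.6* and had a mean of 1.13 TPM in *daf-2(lf)* and 1.19 TPM in double mutant muscle cells.

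Around *R119.3*, 5 of 6 neighbours were higher in the double mutant than in *daf-16(lf)* muscle cells, while *R119.3* itself was lower in the double mutant. Among the 5, the pseudogene *R119.1* had means below 1 TPM in both groups (0.0299 TPM in *daf-16(lf)* and 0.519 TPM in the double mutant). *taf-4* rose only from a mean of 3.02 to 6.02 TPM and *R119.5* from 1.24 to 3.92 TPM. The start of *R119.3* overlaps the end of *pqn-59* by 3 bases. *pqn-59* encodes a protein rich in glutamine and asparagine, and *icpp-55*, named as an intermediate cleaving peptidase, lies 105 bases beyond the end of *R119.3*, all on the reverse strand. *icpp-55* was at 0.261 to 0.581 TPM in *daf-16(lf)* muscle cells and at 6.60 to 10.9 TPM in double mutant muscle cells, without overlap. It was higher in the double mutant by 2.92 in muscle cells (adjusted p = 3.23e-08) and by 3.10 in all cells (adjusted p = 9.35e-08), while it was at 8.06 to 11.5 TPM in *daf-2(lf)* muscle cells, within the reach of the double mutant. *pqn-59* was at 25.8 to 71.4 TPM in *daf-16(lf)* and 51.4 to 87.5 TPM in double mutant muscle cells, higher by 0.997 (adjusted p = 0.0391). None of the 6 genes within 10 kb of *R119.3* was lower in that comparison, in which 23.5% of all genes were higher and 8.62% lower. At low IIS none was called in either cell type.

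Lists of other genes give the setting, described by counts and medians. Of 12 tested genes known to respond to DAF-16, 3 were higher and 0 lower in *daf-2(lf)* than in double mutant muscle cells, and 7 were higher and 0 lower in all cells. Of all 14717 genes tested, 46 were higher and 44 lower in muscle cells, and 253 (1.72%) were higher and 105 lower in all cells. *sod-3*, the manganese superoxide dismutase, was higher by 5.89 in muscle cells and 4.28 in all cells, and *hsp-12.6*, a small heat shock protein, by 4.12 and 5.19. *ftn-1*, a ferritin, was higher by 1.85 in muscle cells and 3.73 in all cells, and *mtl-1*, a metallothionein, by 5.14 in all cells. Unlike *R04B5.6* and *R119.3*, *sod-3* was already low at high IIS, at 2.64 to 5.22 TPM in wild-type and 0.0908 to 0.971 TPM in *daf-16(lf)* muscle cells, while at low IIS it reached 75.6 to 221 TPM with DAF-16 and 1.055 to 2.04 TPM without. Between the double mutant and *daf-16(lf)* the same list had 0 genes higher and 2 lower in muscle cells, with a median of -0.22 against 0.33 over all genes. Of all genes 23.5% were higher and 8.62% lower there. The 2 lower genes of the list were *dod-6* and *icl-1*, the glyoxylate cycle enzyme isocitrate lyase, with differences of -2.01 and -1.91.

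Other oxidoreductases were compared at low IIS, where 0.612% of all genes were called in muscle cells and 2.43% in all cells. Of 29 tested genes named as short-chain dehydrogenases (*dhs*), only *dhs-9* was called there, higher in *daf-2(lf)* by 2.42 in muscle cells (adjusted p = 0.000317) and by 1.74 in all cells (adjusted p = 0.00311). In muscle cells *dhs-9* was at 41.7 to 55.997 TPM in *daf-2(lf)*, at 7.23 to 11.7 TPM in the double mutant and at 3.39 to 9.78 TPM in *daf-16(lf)*, where *R04B5.6* and *R119.3* were high. Of the 10 tested aldo-keto reductases none was called at low IIS in either cell type. The genes *sodh-1*, *sodh-2*, *adh-5* and *mecr-1* were chosen for comparison as medium-chain dehydrogenases. Whether *R04B5.5* and *R04B5.6* belong to that family was not examined. Of the 4, *sodh-1* was not found under that name and so not analysed here, *sodh-2* did not pass the filter and the other 2 were not called at low IIS.

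Between the double mutant and *daf-16(lf)*, 23.5% of all genes were higher and 8.62% lower in muscle cells, and 45.2% were higher and 11.3% lower in all cells. The *dhs* counts lay near these shares. In muscle cells 8 *dhs* genes were higher and 2 lower in the double mutant than in *daf-16(lf)* (median -0.22), and 16 were higher and 4 lower in all cells (median 1.16). *mecr-1*, a reductase of mitochondrial fatty acid synthesis, was lower in both (differences -2.004 and -1.51). Its mean was 102 TPM in *daf-16(lf)*, 25.2 TPM in double mutant and 28.4 TPM in *daf-2(lf)* muscle cells, so unlike *R119.3* it was low in *daf-2(lf)* too. *adh-5*, an alcohol dehydrogenase, was higher (0.79 and 1.201). Aldo-keto reductases had 2 higher and 0 lower in muscle cells and 7 higher and 1 lower in all cells. Of 29 listed genes of hexose, glycerol and trehalose metabolism, 23 were found by name and tested. The trehalases were not found under the names listed and were not examined, which does not mean that the data lack them. Of these 23, 15 were higher and 0 lower in muscle cells (median 0.86) and 8 were higher and 3 lower in all cells. At low IIS only *gpd-2*, a glyceraldehyde-3-phosphate dehydrogenase, was called, higher in *daf-2(lf)* all cells by 0.998 (adjusted p = 0.0333).

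Genes induced by stress moved in the same direction as *R04B5.6* and *R119.3* between the double mutant and *daf-16(lf)*. Of 11 tested heat shock and glutathione genes, 8 were lower and 1 higher in muscle cells (median -2.19) and 6 were lower and 3 higher in all cells (median -3.09), where the medians of all genes were 0.33 and 0.86. Of all genes 8.62% were lower and 23.5% higher in muscle cells, and 11.3% lower and 45.2% higher in all cells. The 12 listed genes summed to 3709 to 8021 TPM in *daf-16(lf)* and 527 to 1526 TPM in double mutant muscle cells. Their sum was 851 to 3711 TPM in *daf-2(lf)* muscle cells, where *R04B5.6* and *R119.3* were as high as at high IIS or higher. These libraries overlapped those of the double mutant. In all cells the sum was 875 to 1252 TPM in *daf-2(lf)* and 494 to 744 TPM in the double mutant, without overlap. Different genes led these sums. *hsp-16.48* had a mean of 4083 TPM in *daf-16(lf)* muscle cells, but 69.4 TPM in *daf-2(lf)* and 35.3 TPM in double mutant all cells. In *daf-2(lf)* all cells *gst-10* and *gst-7* had the largest means (294 and 270 TPM), and neither was called between these all cells groups. At low IIS 2 of the 11 were higher in *daf-2(lf)* than in double mutant muscle cells, *hsp-70*, an inducible chaperone (2.37), and *gst-7* (2.44). In all cells only *gst-4* was called (1.88), and the *gst* genes encode glutathione S-transferases. Of all genes 0.612% were called in muscle cells and 2.43% in all cells at low IIS. The part of a response to dissociation and sorting in the levels of *R04B5.6* and *R119.3* was not tested.

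**Figure D4:**
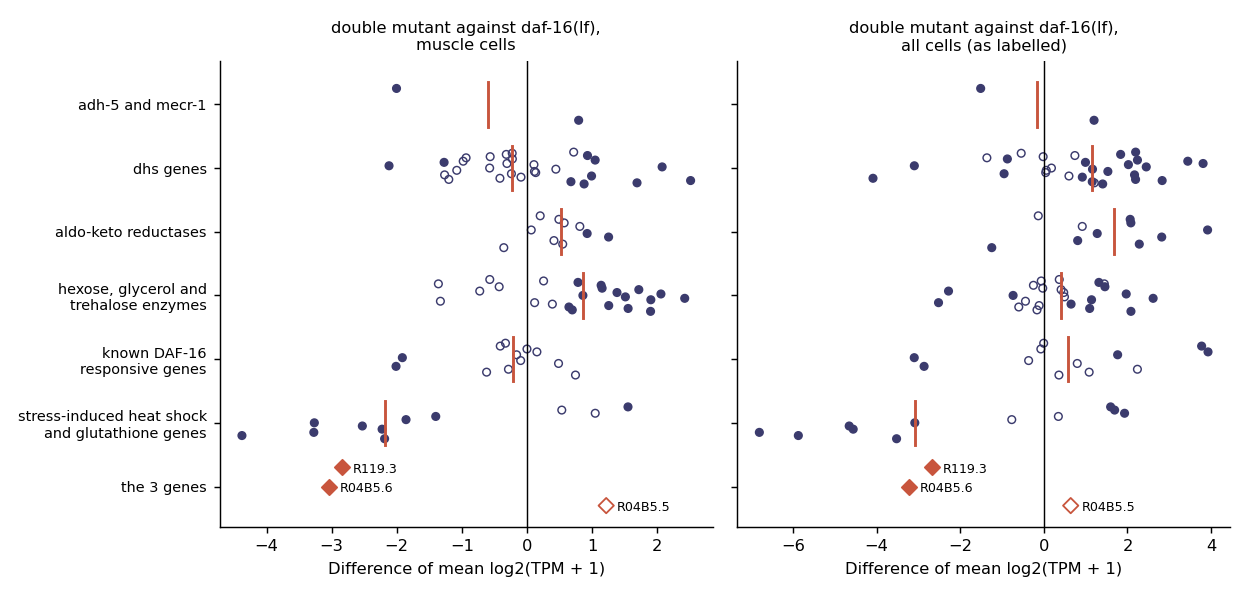
Differences of mean log2(TPM + 1) between the double mutant and *daf-16(lf)* (x axis) in muscle cells (left) and all cells as labelled (right) for the tested genes of each list (circles, filled where the adjusted p was under 0.05; red line, median) and for the 3 genes (diamonds, filled likewise). *R04B5.6* and *R119.3* lie among the stress-induced genes, whose medians were -2.19 and -3.09, and *R04B5.5* lies on the other side of 0 (1.22 and 0.64), except that in all cells it turned to -0.18 and -0.35 under the scaling alternatives.

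Across the 24 libraries, *R04B5.6* and *R119.3* had a Pearson correlation of log2(TPM + 1) of 0.79, while *R04B5.5* had -0.21 with *R04B5.6* and 0.03 with *R119.3*. These correlations are descriptions over libraries that share genotype, cell type and IIS state. *R04B5.6* and *R119.3* were both selected as raised in *daf-2(lf)* muscle cells, which are among the 24 libraries. Their likeness is thus partly set by the selection. Among all genes tested, *R04B5.6* was the gene most like *R119.3*, followed by *asp-4*, an aspartyl protease (0.73), *gst-4* (0.71), *nta-1* (0.71) and *F08H9.4* (0.70). *F08H9.4* was low in the double mutant, with a mean of 0.147 TPM in muscle cells, but it was also low at high IIS, at 0.983 TPM in wild-type muscle cells, against 9.81 TPM in *daf-2(lf)* muscle cells. The genes most like *R04B5.6* were *hsp-70* (0.87), *F48C1.6* (0.86), *C17C3.1* (0.85), *W05H7.1* (0.85) and *twk-49*, a potassium channel gene (0.85). *hsp-70* was at 30.1 to 69.8 TPM in *daf-16(lf)*, 27.5 to 63.3 TPM in *daf-2(lf)* and 4.59 to 14.9 TPM in double mutant muscle cells, lowest in the double mutant like *R04B5.6*.

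The genes most like *R04B5.5* were *mef-2*, a MADS-box transcription factor of muscle (0.95), *tag-131* (0.94), *let-756*, a fibroblast growth factor (0.94), *F47G3.4* (0.94) and *C55A6.3* (0.93). In muscle cells *mef-2* was at 24.1 to 28.2 TPM in *daf-2(lf)* and 12.0 to 32.3 TPM in the double mutant, which overlapped, and at 2.36 to 5.01 TPM in wild-type muscle cells. *let-756* was at 45.6 to 63.4 TPM in *daf-2(lf)*, 28.7 to 50.1 TPM in double mutant and 2.82 to 5.40 TPM in wild-type muscle cells. In all cells at low IIS *mef-2* was at 6.80 to 12.5 TPM and *let-756* at 5.08 to 9.65 TPM. The *let-756* ranges of muscle and all cells at low IIS did not overlap, while the lowest double mutant muscle library lay within the range of all cells for *mef-2* and for *R04B5.5*.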

How the data were processed

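mRNA-seq was examined in 24 libraries of sorted cells, grouped by the genotype and cell type in the labels. The authors quantified reads with Salmon 1.4.0 on WBcel235 transcripts, tested estimated counts with DESeq2, and deposited TPM for 35749 transcripts. Those counts were not used here, and TPM keeps no read depth, so counting error is unknown. Scaling to a fixed total also lets abundant transcripts of a cell type lower all others.

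TPM was summed per gene with the Ensembl annotation, giving 21982 genes. The 14717 genes that reached 1 TPM in 3 or more libraries entered the fit, made with limma 3.58.1 (R 4.3.3) on log2(TPM + 1), with 1 mean for each of 8 groups, an abundance trend and Benjamini-Hochberg adjustment, at an adjusted p under 0.05. The fit was tested on simulated data.

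The genes and lists were chosen with earlier results of these data known. Genes named are the 3 genes, those within 10 kb, the 5 with the highest Pearson correlation to each, and from each list the 4 of largest difference past the threshold at low IIS (double mutant against *daf-2(lf)*) in each cell type, or all called where 5 or fewer. *sodh-2*, *hsp-16.48* and *gst-10* were named outside this rule, after their values were seen. Alternatives were another pseudocount, filter, scaling, trend or set of libraries, and the replicate number as a block. A fit without the 4 libraries labelled wild-type or *daf-16(lf)* all cells, the difference of differences, the ratio tests and the sign-flip tests within pairs were added after seeing the data. Deviations of same-numbered libraries correlated above 0.1 in every pair between the muscle cells at high IIS (mean r 0.533) and between muscle and all cells of the double mutant (0.351) and of *daf-2(lf)* (0.296), by numbers in the labels. No sequences or promoters were used here.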

Additional observations from a re-analysis of the deposited data

How the results depend on the processing

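Values of the 3 genes that crossed a threshold come first. For *R04B5.6* in all cells at low IIS, *daf-2(lf)* minus the double mutant was 1.89 (adjusted p = 0.0585) with a minimum of 4 TPM, 1.89 (0.0713) in a model of the compared groups alone, 1.01 (0.495) with quantile normalization, 1.17 (0.697) with median-of-ratios scaling and 1.47 to 2.14 with 1 library left out. For *R04B5.5* in muscle cells, the double mutant minus *daf-16(lf)* passed the threshold at 1.22 with a minimum of 4 TPM (adjusted p = 0.0437), in a model of the compared groups alone (0.0298), without the wild-type all cells libraries as labelled (0.00150) and without those and the *daf-16(lf)* all cells (0.00183), but it was 0.84 (adjusted p = 0.146) with quantile normalization, 0.71 (0.331) with median-of-ratios scaling and 0.985 to 1.51 with 1 library left out. In the double mutant, *R04B5.5* passed between muscle and all cells at 2.07 (quantile normalization), 2.12 (median-of-ratios scaling) and 0.83 (without either set of libraries, 0.0156 and 0.0169), and *R119.3* reversed to 1.36 and 1.102 under these scalings.

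Another 22 tested values moved by more than 1 SD between replicates with no change of call. Of these, the double mutant minus *daf-16(lf)* in all cells reached -4.96 for *R04B5.6* (pseudocount 0.1) and -3.75 for *R119.3* (quantile normalization) and changed sign in 2 for *R04B5.5* (-0.18 and -0.35 under the scalings), and muscle minus all cells of *daf-16(lf)* moved to between 0.717 and 1.22.

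Of the values that are descriptions, *daf-2(lf)* minus the double mutant in muscle cells moved to 5.08 for *R04B5.6* and 3.76 for *R119.3* with a pseudocount of 0.1, and to 3.85 for *R119.3* with median-of-ratios scaling. With quantile normalization, *daf-2(lf)* minus wild-type moved to 2.21 for *R04B5.5* and 0.283 for *R119.3*, and *daf-2(lf)* minus *daf-16(lf)* to 1.94 and 0.346, or 0.466 for *R119.3* with median-of-ratios scaling. Muscle minus all cells of *daf-2(lf)* moved to 3.08 and 3.54 for *R04B5.5*, 3.82 and 3.92 for *R04B5.6*, and 1.22 and 2.19 for *R119.3* under these scalings in turn. The replicate block changed no call of the 3 genes (*R04B5.6* in all cells at low IIS, adjusted p = 0.0448). The most abundant transcript alone gives the same values, since each gene has 1.

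Counts of genes called ranged over the alternatives from 155 (pseudocount 0.1) to 770 (no filter) against 358 in all cells at low IIS, and from 13 (compared groups alone) to 684 (without double mutant replicate 1) against 90 in muscle cells at low IIS (176 with the replicate block, 52 without *daf-2(lf)* replicate 1, 42 without double mutant replicate 3). In all cells at low IIS the count was 169 without *daf-2(lf)* replicate 3. For the double mutant against *daf-16(lf)* they ranged from 3354 to 6269 against 4726 in muscle cells and from 5148 (median-of-ratios scaling) to 9569 against 8321 in all cells. Between cell types they ranged from 6209 (quantile normalization) to 11355 against 9959 in the double mutant and from 774 (without *daf-16(lf)* all cells replicate 2) to 4156 against 3106 in *daf-16(lf)*, and at high IIS from 0 to 4 (without the wild-type all cells as labelled). The causes were not tested. Read depth is unknown, so levels near 0, as of *R04B5.6* in the double mutant, carry an unknown counting error.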
